A study of Mus musculus with 4 samples.

Results

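The locus of the mouse gene T (Brachyury) was examined in peak lists from ATAC-seq, which maps open chromatin as the DNA that a transposase can cut and tag with sequencing adapters. All peaks with any base within 150 kb of the transcription start site (TSS) of T, at position 8434423 of chromosome 17 in mm10, were taken from 4 lists. This gave 83 of 234141 peaks. Peaks of different libraries that shared at least 1 bp were joined into regions, and 25 of 80380 regions lay in the window. T was chosen with the values of its promoter peak known, and position, fold, rank of the p-value and missing peak numbers in these same lists define the members, so every difference between genotypes below is a description with no test.

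WT and CTCF-K20R embryoid bodies on day 4 of differentiation were compared, with 2 libraries of each genotype. Both genotypes come from the mouse embryonic stem cell line E14Tg2A, were kept on feeder fibroblasts with LIF and 2 kinase inhibitors, and were left to form aggregates in hanging drops with serum and no LIF. In CTCF-K20R cells, lysine 20 of CTCF, the zinc finger protein that binds insulators and the anchors of chromatin loops, was changed to arginine by CRISPR/Cas9. The replicates are described as biological, the number of edited clones is not given in the sources used here, and peak lists cannot show the edit itself.

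T encodes the founding member of the T-box family of transcription factors. It is switched on by Wnt and Nodal signalling in the primitive streak, where it is needed for the formation of posterior mesoderm, and it stays on in the notochord and the tailbud. Sequence close to the promoter directs expression in the streak, and notochord expression needs elements farther upstream, on the side of the neighbouring gene T2.

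The gene lies on the plus strand of chromosome 17 from 8434423 to 8442496, with 8 exons in the 1 transcript of the annotation. The window holds 7 protein-coding genes. Upstream of T are Mpc1, a subunit of the mitochondrial pyruvate carrier, Sft2d1, Prr18 and T2, and downstream are Pde10a, a cyclic nucleotide phosphodiesterase, and Gm17087. T2 spans 8355992 to 8423513 on the same strand, so T2 covers much of the nearer part of the sequence upstream of T.

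The sequences that carry the description are shown first, read on the plus strand from the RefSeq sequence of GRCm38 (the mm10 build) as 300 bases around the strongest summit of a region. Shown are the T promoter region and 3 regions upstream of it, all 4 with lower values in K20R or no K20R peak. Capitals mark letters that match one of the motifs searched. In the promoter these are CTTTGAT, a form of the core bound by TCF and LEF factors of the Wnt pathway, and GGGCGG, the GC box, on either strand.
T promoter, chr17:8434001-8434300: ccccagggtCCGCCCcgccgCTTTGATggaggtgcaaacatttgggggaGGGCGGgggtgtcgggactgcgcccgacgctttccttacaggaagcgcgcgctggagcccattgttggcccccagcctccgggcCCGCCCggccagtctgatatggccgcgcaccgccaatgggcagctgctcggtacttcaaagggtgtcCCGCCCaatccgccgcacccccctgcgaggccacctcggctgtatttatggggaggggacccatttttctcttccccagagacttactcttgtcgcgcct
18.7 kb upstream, chr17:8415553-8415852: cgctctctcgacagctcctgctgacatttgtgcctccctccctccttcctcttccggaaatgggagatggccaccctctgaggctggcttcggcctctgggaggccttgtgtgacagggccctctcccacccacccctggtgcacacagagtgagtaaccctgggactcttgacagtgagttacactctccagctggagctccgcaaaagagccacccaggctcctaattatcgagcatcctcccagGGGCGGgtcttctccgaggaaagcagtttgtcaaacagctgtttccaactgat
25.2 kb upstream, chr17:8409030-8409329: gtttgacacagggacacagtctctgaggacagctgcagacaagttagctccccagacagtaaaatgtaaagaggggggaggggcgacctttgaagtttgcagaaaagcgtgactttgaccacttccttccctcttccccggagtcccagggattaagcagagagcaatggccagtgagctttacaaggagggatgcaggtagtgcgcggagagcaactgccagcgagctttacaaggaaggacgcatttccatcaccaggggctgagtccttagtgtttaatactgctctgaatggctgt
37.9 kb upstream, chr17:8396392-8396691: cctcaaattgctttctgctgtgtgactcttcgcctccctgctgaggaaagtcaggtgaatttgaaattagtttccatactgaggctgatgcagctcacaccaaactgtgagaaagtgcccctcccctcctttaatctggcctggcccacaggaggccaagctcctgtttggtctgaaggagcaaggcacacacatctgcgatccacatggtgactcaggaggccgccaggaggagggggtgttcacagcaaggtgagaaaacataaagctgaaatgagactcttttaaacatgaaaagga

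The promoter sequence had a GC content of 66.3% and 25 CpG dinucleotides, against medians of 64.3% and 23 over the 15357 promoter regions of all lists. It held the letters CTTTGAT once, on the plus strand, starting 402 bp upstream of the TSS, and 4 GC boxes. Only exact matches were counted, so that CTTTGAA, also in this sequence on the minus strand, was not. CTTTGAT was present in 1.86% of all promoter regions and GC boxes in 65.5%. A match of letters is a description and not a site of binding.

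The data behind each value differed between libraries. In the order of replicates 1 and 2, there were 59783 and 66703 peaks for WT against 51823 and 55832 for K20R. The pileup is the number of fragments that the peak caller counts over the summit of a peak. Whether these were sequenced fragments or reads extended to a set length is not stated in the sources used here. The pileup was recovered from the deposited fold and p. Its median over autosomal regions with a peak in all 4 lists (common regions) was 38 and 56 in WT against 39 and 58 in K20R. The second replicate of each genotype therefore had the higher pileups, and libraries were compared by ranks or after setting each pileup against the median of its own library (the relative pileup, on a log2 scale). Peak numbers run on with gaps, and 51.7% and 50.5% of the numbers remained in the WT lists against 58.6% and 60.8% in the K20R lists. The lists reach down to a −log10 p of about 2.0, so a listed peak can be weak, and presence in a list is a low bar for the common and restricted counts below. A missing peak may thus have been called and later taken out, except where no number is missing between its neighbours.

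Of the 25 regions, 16 had a peak in all 4 lists, 2 only in both WT lists, 2 only in both K20R lists, and 5 had other combinations. Over all 80380 regions, 47.9% were common, 10.4% were restricted to WT and 3.1% to K20R. The window held 22 and 21 peaks in the WT lists and 20 in each K20R list, and these peaks covered 18413 and 19134 bp in WT against 15474 and 18274 bp in K20R. Between the first and the last window peak 22 and 15 numbers were missing in WT, and 9 in each K20R list. The WT lists had thus lost more called peaks here, as they had over the whole lists. The numbers kept were 50% and 58.3% in WT and 69.0% in each K20R list. Over the whole lists they were 51.7% and 50.5% in WT against 58.6% and 60.8% in K20R. The window is edged on the upstream side by the peak at the Mpc1 promoter, which reaches into it by 113, 38, 145 and 97 bp in WT replicates 1 and 2 and K20R replicates 1 and 2. In the same order, the nearest peaks outside the upstream edge lay 11900, 11716, 86534 and 19328 bp beyond it. These were close together in the WT lists and at other places in each K20R list. Their percentiles (defined below) were 6.36, 7.0, 2.65 and 44.2. The nearest peaks outside the downstream edge lay 8235, 8166, 7980 and 8166 bp beyond it, with percentiles of 53.2, 58.9, 54.4 and 53.6.

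To compare single peaks, the −log10 p of each was turned into a percentile, the share of peaks of its own list at or below it, so that 100 marks the strongest peak. The peak at the T promoter (chr17:8433096-8435514, strongest summit 272 bp upstream of the TSS) stood at percentiles 83.1 and 82.8 for WT and 66.7 and 65.6 for K20R, replicate 1 first as throughout. The genotypes did not overlap and K20R was the lower one, with means of 83.0 ± 0.269 in WT and 66.1 ± 0.831 in K20R (SD, n = 2 each). The difference of −16.8 percentile points was larger than the spread between replicates. Among all common regions, K20R lay below WT in this way in 34.8% and above it in 18.6%.

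The pileup at the T promoter summit was 84 and 120 fragments in WT against 57 and 84 in K20R. Relative to the library median, this was 1.14 and 1.10 in WT against 0.55 and 0.53 in K20R on the log2 scale, a difference of −0.58. The promoter thus remained above the median common region in all 4 libraries, and its relative pileup was lower in both K20R libraries. K20R lay below WT by relative pileup in 23.6% of common regions and above it in 35.6%. The fold, the pileup over the local background that the peak caller estimates in the same library, was 5.90 and 6.45 in WT against 4.77 and 5.19 in K20R. That background was 13.4 and 17.8 fragments in WT against 11.1 and 15.4 in K20R.

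The summit stayed in place while the borders of the peak differed. Summits lay 272 and 297 bp upstream of the TSS in WT and 273 and 297 bp in K20R. The peak was 1419 and 1335 bp wide in WT and 1732 and 2419 bp in K20R. On the downstream side it reached 320 and 173 bp past the TSS in WT, close to the end of exon 1 (313 bp past the TSS) or short of it. In K20R it reached 786 and 1091 bp, into exon 2 (768 to 1032 bp past the TSS) in replicate 1 and through it in replicate 2. The weaker K20R peaks were therefore the wider ones, and the widths of the genotypes did not overlap.

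**Figure D1:**
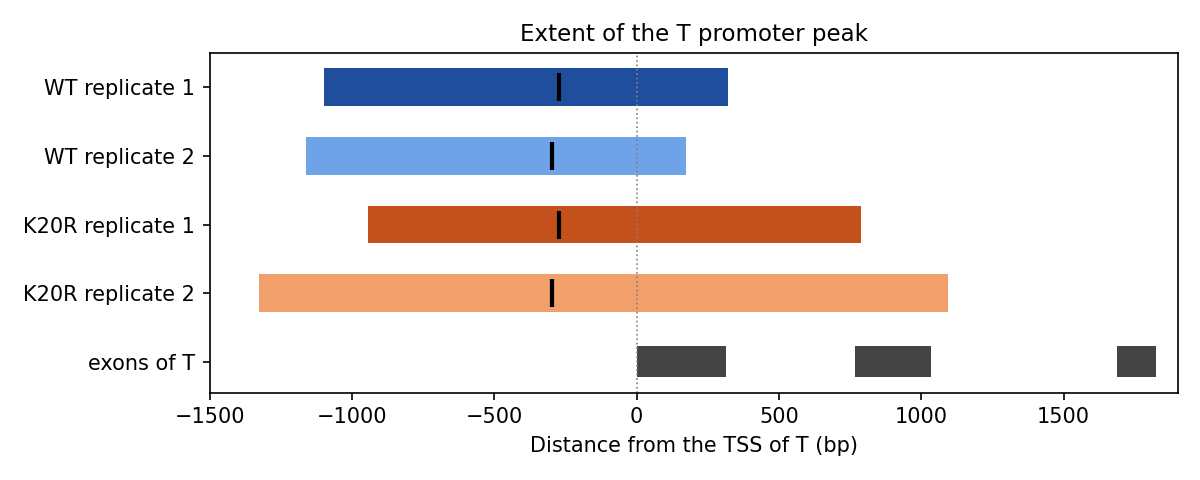
Extent of the peak at the T promoter in each of the 4 libraries (bars), with its summit (black tick) and the first exons of T, by distance in bp from the TSS (dotted line). The K20R peaks end 786 and 1091 bp downstream of the TSS and the WT peaks 320 and 173 bp, and all summits lie between 272 and 297 bp upstream.

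Ranked only among the 14480 protein-coding genes with a promoter peak in all 4 lists, T stood at the percentiles 40.5 and 36.9 in WT against 16.6 and 12.7 in K20R. It went from a little below the middle of all promoters towards the bottom of them, a difference of −24.1 percentile points. Of the 14480 promoters, 294 (2.03%) had a difference as low or lower, and K20R lay below WT in 22.9% and above it in 23.8%. The genes whose 4 promoter percentiles were nearest to those of T, by Euclidean distance over the 4 libraries and among 14017 autosomal genes, were Fignl2 (2.18 percentile points), Eif4g3 (2.40), Sall2 (5.14), Efnb3 (5.24) and Six2 (5.73). None of them is in the lists of streak and mesoderm genes described below.

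Among the common regions of the window, the lowest differences in relative pileup were those of 3 regions within T2 and of the T promoter itself, and a further region of T2 between them had no K20R peak and so no difference. The region 18.7 kb upstream of T (chr17:8415448-8416183, intron of T2) had percentiles of 79.7 and 78.7 in WT against 39.6 and 28.3 in K20R. Its pileup was 63 and 88 fragments in WT against 24 and 22 in K20R, so that the K20R libraries had less than the shallower WT library, although the median pileups of the common regions were slightly higher in K20R. The relative pileup was 0.73 and 0.65 in WT against −0.70 and −1.40 in K20R, a difference of −1.74 on the log2 scale. The region thus stood above the median common region in WT and below it in K20R. Its peaks were 604 and 726 bp wide in WT and 289 and 454 bp in K20R, narrower in K20R, unlike those of the promoter.

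The region 25.2 kb upstream (chr17:8408480-8409549, intron of T2) had percentiles of 90.8 and 92.1 in WT against 70.3 and 76.4 in K20R. Its pileup was 86 and 131 fragments in WT against 43 and 74 in K20R, and the relative pileup differed by −0.96 on the log2 scale. The groups did not overlap by either measure. The folds were closer, at 9.43 and 11.3 in WT against 7.22 and 10.4 in K20R, and the local background was lower in K20R as well, at 8.22 and 10.6 fragments in WT against 5.09 and 6.24 in K20R. The fold of K20R replicate 2 lay above that of WT replicate 1, but by the percentile of the fold K20R was below WT.

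The region 45.1 kb upstream (chr17:8388540-8390137) overlaps an exon of T2, an exon of the lincRNA Gm16702 on the other strand and an exon of the noncoding transcript AC164431.1, and accessible DNA here cannot be assigned to one of them. It was among the strongest peaks of the window in WT, with percentiles of 90.4 and 95.0, and had 66.5 and 66.6 in K20R. Pileups were 91 and 169 fragments in WT against 44 and 63 in K20R, and the relative pileup differed by −1.28 on the log2 scale. Folds were 8.50 and 10.5 in WT against 5.97 and 7.31 in K20R.

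The region 37.9 kb upstream (chr17:8396041-8397074, intron of T2 and of AC164431.1) had a peak in WT only. Its percentiles were 86.9 and 87.6, its pileups 70 and 102 fragments and its folds 9.21 and 11, so in WT it stood above the promoter of T by percentile and fold and below it by pileup. In the list of K20R replicate 2 no number was missing between the neighbouring peaks, so no peak had been called there, while K20R replicate 1 lacked 2 numbers and a peak that was later taken out is possible. Neither this sequence nor that of the region 25.2 kb upstream held an exact match to any motif searched. The sequence 25.2 kb upstream held CTTTGAA, which was not counted.

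**Figure D2:**
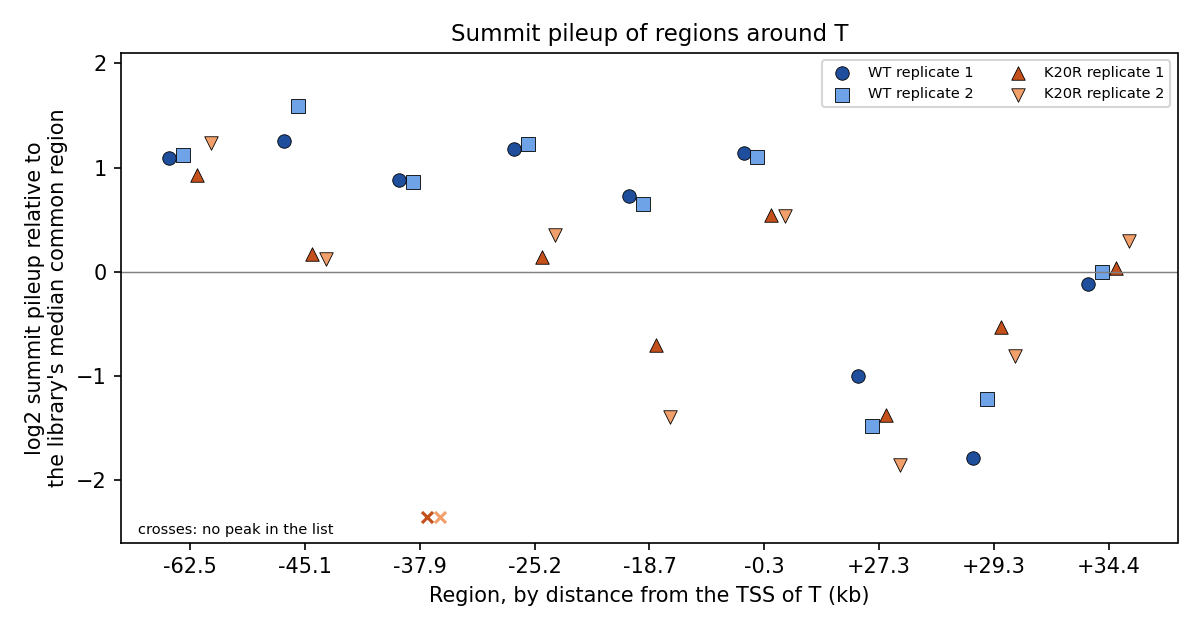
Summit pileup of 9 regions around T in each library, as log2 relative to the median common region of that library (y axis), ordered by distance from the TSS in kb (x axis, negative upstream). Of the regions plotted from 45.1 kb upstream to the promoter, every K20R point lies below both WT points or is missing (crosses, no peak in the list), while at the T2 promoter, 62.5 kb upstream, the genotypes overlap. The weak region 13.5 kb upstream, with a peak in K20R alone, lies in this interval and is not plotted.

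The T2 promoter region, 62.5 kb upstream of T (chr17:8371611-8372908), marked the far end of this interval. It lies at an internal TSS of T2, within an intron of a longer transcript that starts 78.4 kb upstream of T. Its percentiles were 82.0 and 82.0 in WT against 78.7 and 86.4 in K20R, its pileups 81 and 122 fragments in WT against 74 and 137 in K20R, and its relative pileup differed by −0.03 on the log2 scale. The genotypes overlapped, and in WT its percentiles were close to those of the T promoter. A little farther upstream, 65.6 kb from T, an intronic region of T2 (chr17:8368304-8369008) had a peak in WT alone, with percentiles of 56.6 and 60.02 and pileups of 43 and 66 fragments. One number was missing at this place in each K20R list, so a called and removed peak is possible in both.

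Grouped by position, with borders drawn after the values were seen, the 4 common regions between the T2 promoter and the T promoter, the latter included, were all lower in K20R by percentile and by relative pileup, with a median log2 difference of −1.12 (range −1.74 to −0.58). The 6 regions of this interval also included 1 with a peak in WT alone, 37.9 kb upstream, and 1 with a peak in K20R alone, 13.5 kb upstream. Upstream of the T2 promoter, 3 of 5 common regions were lower by percentile, and by relative pileup 1 was lower and 4 overlapped, with a median of −0.12. Downstream of T, 3 of 6 were lower and 1 was higher by percentile, and by relative pileup 1 was lower, 2 were higher and 3 overlapped, with a median of −0.07 (range −0.44 to 0.83). Over all 38527 common regions, 34.8% were lower and 18.6% higher by percentile, and 23.6% were lower and 35.6% higher by relative pileup. Their median log2 difference was 0.08, as it was over the 1764 on chromosome 17. For the 19 common regions within 1 Mb of the TSS but outside the window it was −0.03.

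**Figure D3:**
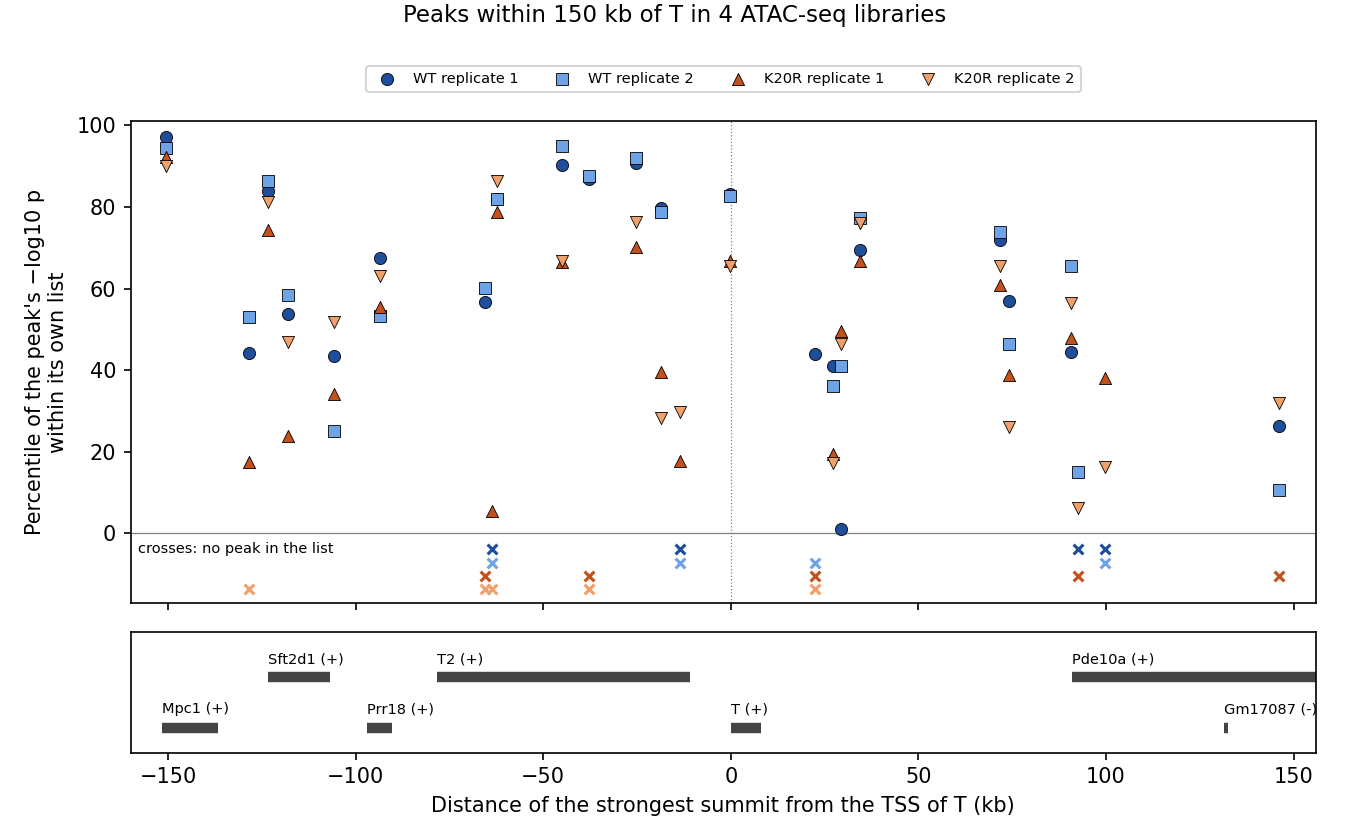
Percentile of the −log10 p of each peak within its own list (y axis) for the 25 regions within 150 kb of T, by distance in kb from the TSS (x axis), with the protein-coding genes below. Crosses mark lists without a peak. WT points lie above K20R points at the T promoter and the T2 regions 18.7, 25.2 and 45.1 kb upstream, and WT and K20R points mix at the T2 promoter.

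Over the whole window, 10 of the 16 common regions were lower in K20R by percentile and 1 was higher, beside 34.8% and 18.6% of all common regions. By relative pileup 6 were lower and 2 higher, beside 23.6% and 35.6%. The median percentile of the window peaks was 62.1 and 65.6 in WT against 48.7 and 54.1 in K20R. The median fold, 5.64 and 6.79 in WT against 4.65 and 6.18 in K20R, overlapped between genotypes.

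Downstream of T the first accessible regions lay in intergenic DNA, and a pair of them carried the core of the CTCF motif, which is in 6.22% of all regions and in 7.38% of those away from promoters. They are shown because CTCF is the protein changed in K20R cells, with 60 bases around the match on the plus strand and the motif letters in capitals.
27.3 kb downstream, chr17:8461744-8461803: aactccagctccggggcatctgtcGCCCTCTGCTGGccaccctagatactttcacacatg
34.4 kb downstream, chr17:8468866-8468925: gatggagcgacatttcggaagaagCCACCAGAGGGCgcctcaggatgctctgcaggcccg
The match of the first is on the minus strand and that of the second on the plus strand. Only exact matches to the core were counted. Near matches were not counted in any region, so their share over all regions is not known. The regions with a peak in K20R alone, 13.5 kb upstream and 99.6 kb downstream, each held one. So did the common region 106 kb upstream, and a near match is thus not particular to regions with a peak in K20R alone.

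The region 27.3 kb downstream (chr17:8461514-8462047) was weak in every library, with pileups of 19 and 20 fragments in WT against 15 and 16 in K20R. Its percentiles of 41.1 and 36.0 in WT lay above those of 19.4 and 17.3 in K20R, but the relative pileups of −1.0 and −1.49 in WT against −1.38 and −1.86 in K20R overlapped. The region 34.4 kb downstream (chr17:8468561-8469235) was stronger. Its percentiles were 69.5 and 77.3 in WT against 66.7 and 76.0 in K20R and overlapped, while its relative pileup of −0.12 and 0.00 in WT lay a little below the 0.04 and 0.29 of K20R. Neither measure therefore set both regions with the CTCF core lower in K20R.

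Between these regions, 29.3 kb downstream of T (chr17:8463352-8464146), lay the 1 common region that was higher in K20R by percentile. It had percentiles of 1.12 and 40.9 in WT against 49.5 and 46.4 in K20R, and pileups of 11 and 24 fragments in WT against 27 and 33 in K20R. The difference of 26.9 percentile points rested on WT replicate 1, whose summit lay 29663 bp from the TSS and those of the other libraries between 29276 and 29290 bp. Without that library the difference was 7.01.

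Farther downstream, the regions 71.8 and 74.1 kb from T were lower in K20R by percentile. At 71.8 kb percentiles were 71.8 and 73.8 in WT against 60.8 and 65.4 in K20R, and the relative pileup was lower as well, by −0.20 on the log2 scale. At 74.1 kb they were 56.9 and 46.3 in WT against 38.7 and 26.1 in K20R, and the relative pileups overlapped. At the first promoter of Pde10a, 90.6 kb from T, percentiles of 44.5 and 65.6 in WT against 47.9 and 56.5 in K20R overlapped.

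The regions with a peak in K20R alone were weak. One lay in an intron of T2, 13.5 kb upstream of T (chr17:8420728-8421188), with percentiles of 17.6 and 29.7 and pileups of 14 and 19 fragments. In both WT lists 2 numbers were missing there. The other lay in an intron of Pde10a, 99.6 kb downstream (chr17:8533813-8534219), with percentiles of 38.1 and 16.2 and pileups of 18 and 14 fragments. In WT replicate 2 no peak had been called at that place, and WT replicate 1 lacked 2 numbers. The regions with a peak in WT alone had percentiles from 56.6 to 87.6, so by percentile the window had stronger peaks restricted to WT than to K20R. By fold this held only for the region 37.9 kb upstream, at 9.21 and 11. The region 65.6 kb upstream had folds of 3.81 and 4.44. Those of the K20R regions were 3.01 and 4.99 at 13.5 kb upstream and 4.54 and 3.74 at 99.6 kb downstream. These are 2 regions against 2, and strength was not compared in this way over the restricted regions of the whole lists.

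The remaining regions lay mostly upstream of T2. The Mpc1 promoter, 151 kb from T, had percentiles of 97.3 and 94.5 in WT against 92.2 and 90.1 in K20R, and the Sft2d1 promoter, 123 kb from T, had 83.9 and 86.5 in WT against 74.3 and 81.2 in K20R. Both were lower in K20R by percentile, and both overlapped by relative pileup. An intronic region of Sft2d1, 118 kb upstream, was lower by both measures, with percentiles of 53.7 and 58.5 in WT against 23.8 and 46.9 in K20R. The Prr18 promoter (93.5 kb) and the region 106 kb upstream overlapped between genotypes. Among the 5 regions with other combinations, percentiles ran from 5.41 to 53.0, and the one 128 kb upstream had 44.2 and 53.0 in WT, 17.5 in K20R replicate 1 and no peak called in K20R replicate 2.

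Of the other motifs searched, some had matches at the locus and others had none. None of the 25 regions held the T-box core TCACACCT, the SMAD palindrome GTCTAGAC, the FOXH1 core AATCCACA or the octamer ATTTGCAT, which were in 1.72%, 0.269%, 1.06% and 2.39% of all regions. The GATA letters AGATAA were in 5 regions of the window (20%) and in 12% of all regions, and CTTTGAT was also in the Pde10a promoter region. GC boxes were in 7 window regions, among them those 18.7 and 45.1 kb upstream, and in 24% of all regions. No match says only that these letters are not within 150 bp of the summit.

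The promoters of 43 other genes that act before, beside or after T in the streak and early mesoderm were compared by the percentile among promoters. A peak in all 4 lists was present for 38 of them, and 5 (Wnt8a, Cdx4, Msgn1, Hes7 and Noto) had none in any list. Of the 38, 14 were lower in K20R, 5 higher and 19 overlapped, with a median difference of −1.62 percentile points. Over all 14480 genes 22.9% were lower and 23.8% higher, with a median of 0.07. The gene lists were chosen with earlier results of these data known, so these counts and those per list below are a description only.

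Of the signals, 2 of 9 were lower, 1 was higher and 6 overlapped, with a median difference of −1.97 percentile points. Tdgf1, the co-receptor of Nodal, had promoter percentiles of 48.1 and 48.8 in WT against 30.2 and 23.3 in K20R, and Fgf8, needed for cells to leave the streak, had 16.3 and 12.5 in WT against 9.71 and 4.44 in K20R. Wnt3a, which maintains T in the tailbud, was higher, with 1.95 and 2.69 in WT against 4.45 and 4.68 in K20R, all near the bottom of the ranking. Wnt3 and Nodal, the signals that induce the streak, overlapped between genotypes.

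Of the effectors of these signals, 3 of 10 were lower, 1 was higher and 6 overlapped, with a median difference of 0.93 points. The T cell factor genes Tcf7 (8.92 and 7.44 in WT, 6.51 and 3.44 in K20R) and Tcf7l2 (63.8 and 77.5 in WT, 58.4 and 55.1 in K20R) and the Nodal effector Smad3 (52.4 and 63.0 in WT, 32.0 and 40.9 in K20R) were lower. Ctnnb1, which encodes β-catenin, was higher, with 12 and 20.3 in WT against 37.2 and 20.4 in K20R. The last of these K20R values was only just above WT. Lef1, Smad2 and Smad4 overlapped. So did Foxh1, with 7.02 and 59.7 in WT against 6.77 and 7.82 in K20R. Its difference of −26.1 points rested on WT replicate 2.

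The partner factors, transcription factors of the streak, node and tailbud, had the most genes lower in K20R, 7 of 11, with 2 higher and 2 overlapping and a median difference of −4.97 percentile points. Foxa2, a factor of the node, notochord and endoderm, had promoter percentiles of 85.7 and 86.5 in WT against 40.1 and 32.4 in K20R, a larger difference than at T. Zic2 (83.0 and 79.4 in WT, 56.4 and 55.0 in K20R), Lhx1 (29.7 and 22 in WT, 12.9 and 8.72 in K20R) and Evx1 (11.4 and 22.8 in WT, 3.23 and 3.05 in K20R) were lower too, as were Sp5, Mixl1 and Cdx2. Eomes, the T-box factor that acts beside T in the early streak, was higher, with 20.2 and 12 in WT against 28.9 and 23.5 in K20R. Gsc, a factor of the organizer, was also higher, with 6.97 and 6.95 in WT against 11 and 8.16 in K20R.

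Of the targets, genes known to be controlled by T or by Wnt signals in the mesoderm, 2 of 8 were lower, 1 was higher and 5 overlapped, with a median difference of −0.39 points. Mesp2, a factor of somite segmentation, had promoter percentiles of 60.7 and 69.2 in WT against 17.4 and 24.4 in K20R. Mesp1, its neighbour and a factor of early cardiac mesoderm, stood higher in K20R, with 3.23 and 3.05 in WT against 17.2 and 20.8 in K20R. Axin2, the feedback inhibitor of Wnt signalling, was lower, with 63.2 and 61.1 in WT against 53.2 and 51.3 in K20R. Tbx6, Snai1, Dll1, Pcdh8 and Cyp26a1 overlapped.

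Among the genes of the window, T had the lowest difference by this measure. Mpc1 (−14.2 percentile points) and Sft2d1 (−12.7) were lower in K20R, and so was Pde10a (−7.20), whose strongest promoter peak lies at a TSS outside the window. Prr18 and T2 overlapped, and Gm17087 had no promoter peak. In bulk chromatin of embryoid bodies, fewer cells with an open T locus and less opening in each cell cannot be told apart.

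**Figure D4:**
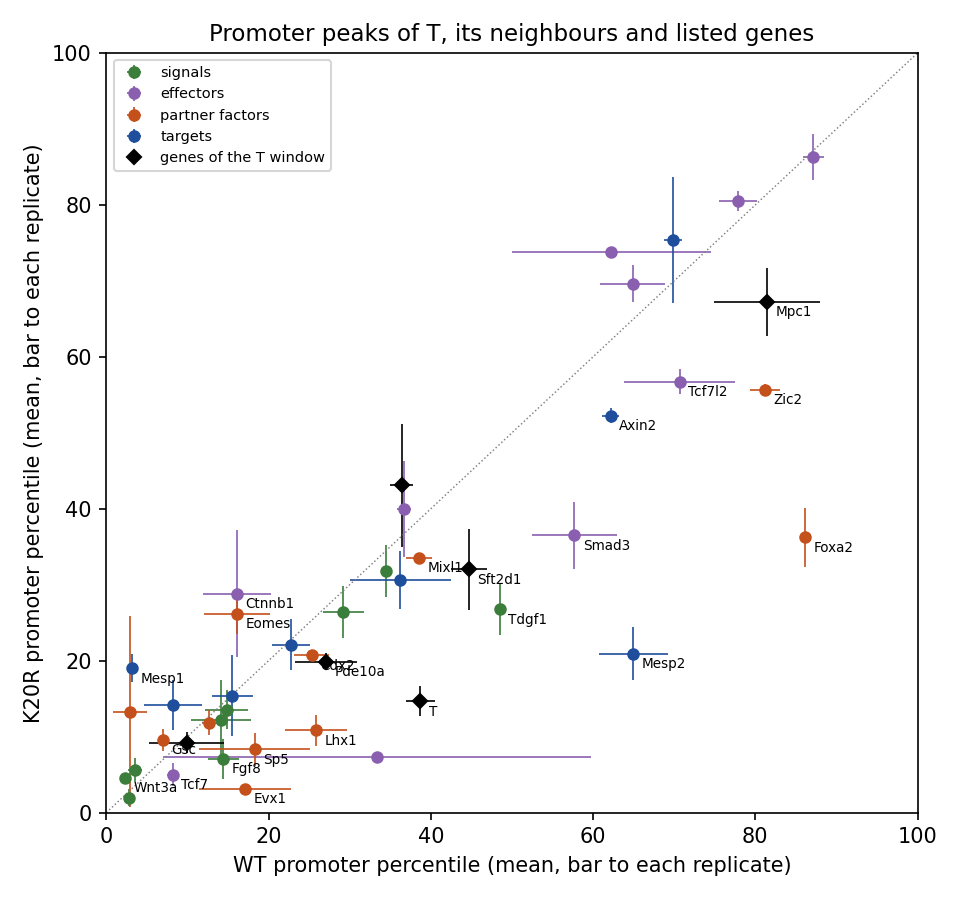
Percentile of the strongest promoter peak among the 14480 genes with a promoter peak in all 4 lists, in WT (x axis) and K20R (y axis), for T, its neighbours (black diamonds) and the listed genes with a peak in all lists (circles). Points are means of 2 libraries with bars reaching to each replicate, names are given where the genotypes did not overlap, and the dotted line marks equal percentiles. Among the named points, T lies well below the line, with Foxa2, Mesp2, Zic2, Tdgf1 and Smad3. The unnamed point of Foxh1, whose genotypes overlap, lies below it as well.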

How the data were processed

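ATAC-seq peak lists of 2 WT and 2 CTCF-K20R libraries were used. According to the methods, the authors trimmed reads with Trim Galore, aligned them to mm10 with Bowtie2, removed low-quality, duplicate and blacklisted reads, and called peaks with MACS2 at settings stated as default, although the lists reach down to a −log10 p of about 2.0, so that a p threshold in place of the default q threshold appears to have applied. The authors deposited 1 list per library, with a score, a fold (ratio of pileup to local background), a −log10 p-value and a −log10 q-value for each summit. Reads and signal tracks were not used, so depth is known only through pileups. Pileup and background were solved from the deposited fold and Poisson p (whole within 0.05 for 100% of peaks in each list). Peaks sharing at least 1 bp were merged. A region was lower or higher in K20R where both K20R values lay beyond both WT values. Promoters were peaks within 1000 bp of a TSS of GENCODE vM21 (basic). The members, gene lists and motifs were chosen with earlier results of these data known. Named were T, the genes and regions of the window, the listed genes and the 5 genes nearest to T in promoter percentiles. The computation was tested on simulated data. Python 3.11.15, numpy 2.4.6, pandas 2.3.3, scipy 1.17.1 and matplotlib 3.10.9 were used. The alternatives covered the ranking measure, the set ranked, q thresholds, list length, window, merging and leaving out each library.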

Additional observations from a re-analysis of the deposited data

How the results depend on the processing

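The percentile difference at the T promoter (−16.8 points) stayed negative under every alternative run. It was −14.7 when ranked by fold, −14.1 by pileup, −14.4 with lists of equal length, −19.2 among common regions, −24.6 among common promoters, −20.9 among common regions of chromosome 17 and −27.5 with peaks of a −log10 q of at least 10, and −17.4 to −16.2 with 1 library left out. The 16 common regions became 9 at that q and 7 in a window of 50 kb (16 to 17 with a library left out). The 2 WT-restricted regions became 4 at a −log10 q of at least 10 or 5, and 1 in the 50 kb window (2 to 3). At a −log10 q of at least 10 these 4 lay 65.6, 37.9 and 18.7 kb upstream and 74.1 kb downstream. The 2 K20R-restricted regions became 0 at either q and 1 in the 50 kb window (2 to 3). The 10 lower regions became 6 by relative pileup (10 to 13), and the 1 higher region became 2 by fold or relative pileup. That count ran from 1 to 4 with a library left out, being 3 without WT replicate 1, 2 without WT replicate 2 and 4 without K20R replicate 1. The difference 25.2 kb upstream (−18.1 points) was −9.38 by fold and −31.4 at a −log10 q of at least 10, that 45.1 kb upstream (−26.1) was −44.5 at that q, and that 29.3 kb downstream (26.9) was 7.01 without WT replicate 1 and 46.8 without WT replicate 2. That 45.1 kb upstream was −21.3 by fold. The difference 18.7 kb upstream (−45.3) ran from −51.1 among common regions of chromosome 17 to −33.6 by fold. No direction was reversed among the 4 single regions and the counts where a value could be recomputed. The region 18.7 kb upstream had none at a −log10 q of at least 10, and the region 29.3 kb downstream had none at that q or with lists of equal length. No paired analysis was made, as the replicate numbers name no shared culture. The median pileups of common regions were alike within a replicate number, at 38 in WT and 39 in K20R for replicate 1 and 56 and 58 for replicate 2. Whether libraries of the same number shared a batch was not tested. Pileups of 11 to 33 fragments at the weakest regions limit what their ranks can show.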
